A study of Mus musculus with 8 samples.

Results

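Expression of 10 genes that are shared by most white blood cells was followed in 8 mouse lung tumors. The genes are *Ptprc*, *Laptm5*, *Coro1a*, *Lcp1*, *Lcp2*, *Vav1*, *Inpp5d*, *Was*, *Itgb2* and *Tyrobp*. They were chosen as signaling and cytoskeletal genes of leukocytes, with earlier results of these data known. All 10 were found among the 48709 genes of the count table and among the 14929 genes that passed the filter on low counts. RNA was sequenced from tumors of 2 groups, *K-Ctrl* and *K-Setd2KO*, with 4 in each. The mice of both groups were of the *K* model, in which Cre starts lung tumors, on a mixed B6J/129S4vJae background. According to the study's methods, tumors in both groups were started by endotracheal delivery of lentiCRISPRv2Cre, a lentivirus that carries Cre, Cas9 and a guide RNA. The guide was directed at *GFP*, a sequence foreign to the mouse, in *K-Ctrl* tumors and at *Setd2*, whose product places 3 methyl groups on lysine-36 of histone H3, in *K-Setd2KO* tumors. The vector was given through the airway to mice that keep their own immune system, and the guide acts only in transduced cells and their progeny. Whether leukocytes in the airway took up the vector was not measured here. The labels give neither the age of the mice nor whether tumors came from separate mice, so p-values measure the spread between these tumors. The design text describes flash-frozen tumors, whereas the extraction text speaks of cell lines, and the samples are called tumors here.

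The products of most of these genes connect receptors at the surface of blood cells to kinases, lipids and actin. A receptor that is engaged activates Src-family and Syk-family kinases, which phosphorylate adaptors. The adaptors then recruit exchange factors, and these rebuild the actin cortex for migration, phagocytosis and cell contact. In the lung, alveolar macrophages are a major population of resident leukocytes, and tumors of the alveolar epithelium also hold recruited monocytes, dendritic cells and lymphocytes. RNA from a whole tumor is a mixture, so fewer leukocytes and less RNA per leukocyte cannot be told apart in any value given here.

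Sequences before a start site of 4 of these genes are shown. *Vav1* had the profile closest to the common one, and *Ptprc* had the largest fold change with genotype as the only term. *Inpp5d* is a lipid phosphatase gene with the same core motif, and *Lcp1* stood apart from the other 9. Each run holds the 250 bases before a RefSeq start site on GRCm38.p6, 5′ to 3′ on the strand of the gene. RefSeq starts and the gene ends of the count table differ for 2 of the 4. The *Ptprc* start lies 403 bases inside the gene as the table bounds it, so its whole window falls within the gene, and the last 22 bases of the *Lcp1* window fall within annotated exon. Capitals mark the core letters GAGGAA or TTCCTC of the motif read by PU.1, an ETS factor of myeloid and B cells, and the GC box GGGCGG or CCGCCC.
Vav1, chr17:57278850-57279099, plus strand: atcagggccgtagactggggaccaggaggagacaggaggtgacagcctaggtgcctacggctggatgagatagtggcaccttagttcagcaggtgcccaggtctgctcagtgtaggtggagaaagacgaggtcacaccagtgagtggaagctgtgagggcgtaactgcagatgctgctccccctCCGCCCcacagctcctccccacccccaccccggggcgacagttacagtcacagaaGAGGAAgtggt
Ptprc, chr1:138175306-138175555, minus strand: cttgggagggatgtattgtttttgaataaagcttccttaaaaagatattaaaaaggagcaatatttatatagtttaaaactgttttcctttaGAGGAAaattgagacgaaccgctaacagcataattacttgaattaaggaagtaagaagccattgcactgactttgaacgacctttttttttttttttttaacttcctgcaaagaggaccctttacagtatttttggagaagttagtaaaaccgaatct
Inpp5d, chr1:87620062-87620311, plus strand: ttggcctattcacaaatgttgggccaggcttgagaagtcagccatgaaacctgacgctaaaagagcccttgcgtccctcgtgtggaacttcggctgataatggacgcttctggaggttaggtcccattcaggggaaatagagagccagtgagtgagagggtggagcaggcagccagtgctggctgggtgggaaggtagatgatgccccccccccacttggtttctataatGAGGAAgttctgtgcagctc
Lcp1, chr14:75130873-75131122, plus strand: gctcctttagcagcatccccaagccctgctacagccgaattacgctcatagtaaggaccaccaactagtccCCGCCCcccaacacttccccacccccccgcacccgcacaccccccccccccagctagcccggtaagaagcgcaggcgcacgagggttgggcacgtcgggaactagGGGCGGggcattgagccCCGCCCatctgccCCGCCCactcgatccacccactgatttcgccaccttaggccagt

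RefSeq gave 11 such windows for 8 of the 10 genes, and none was used for *Itgb2* and *Tyrobp*. On either strand, the PU.1 core lay in 4 of the 11 windows, 1 each for *Vav1*, *Ptprc*, *Inpp5d* and *Laptm5*, beside 23.25% of 32851 windows of the same length over all genes. It began 11 bases before the start site in *Vav1*, 20 bases before it in *Inpp5d* and 158 bases before it in *Ptprc*. The core was absent from the windows of *Coro1a*, *Lcp2* and *Was*, which were called lower, as well as from those of *Lcp1*. The *Lcp1* window shown held 4 GC boxes and no PU.1 core, and its GC content was 66.0%, against 31.6% in the *Ptprc* window. Both genes have another window downstream of the one shown. That of *Lcp1* held neither motif, at 41.6% GC, and that of *Ptprc* held no PU.1 core, at 36.8% GC. A GC box lay in 3 of the 11 windows (*Lcp1*, *Vav1* and *Coro1a*) and in 32.74% of all windows. The core TGTGGT of RUNX factors lay in 1 window, that of *Was*, beside 14.05% of all windows, and the TATA box TATAAA lay in those of *Ptprc* and *Laptm5*, beside 12.37%. These letters are a description of the windows and show no binding.

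Total counts ranged from 5806599 to 21290402 per tumor. The 10 genes together took 4812 to 44346 counts per tumor, and the fewest counts behind any value were the 14 of *Was* in *K-Setd2KO* replicate 4, so counting error was largest for that gene. *Setd2* mRNA did not separate the groups, at 140.1 ± 8.81 CPM in *K-Ctrl* tumors and 135.7 ± 15.5 CPM in *K-Setd2KO* tumors (SD, n = 4; adjusted p = 0.824, edgeR). CPM are counts scaled to a common library size with TMM factors, which correct for differences in RNA composition. A guide that edits the coding sequence need not lower the mRNA, so this level does not check the labels.

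Of the 10 genes, 9 were lower in *K-Setd2KO* tumors, none was higher and *Lcp1* did not pass the test (edgeR's quasi-likelihood test, adjusted p under 0.05 over all genes tested). The same test called 12.7% of all genes, with 7.74% of all genes lower and 4.97% higher. Since the 10 genes were chosen with earlier results of these data known, the comparison with these shares is a description and no test. Each of the 9 fell by more than 2-fold, which 6.39% of all genes did with an adjusted p under 0.05. The median log2 fold change of the 10 genes, *K-Setd2KO* minus *K-Ctrl*, was -1.74, beside 0.03 over all 14929 genes. For the same 9 genes, every *K-Ctrl* tumor lay above every *K-Setd2KO* tumor, a separation that 11.2% of all genes showed in this direction and 20.3% in either. For each of them a two-sided exact permutation of the group labels, which allows 70 arrangements, gave p = 0.0286, the smallest value it can give.

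**Figure D1:**
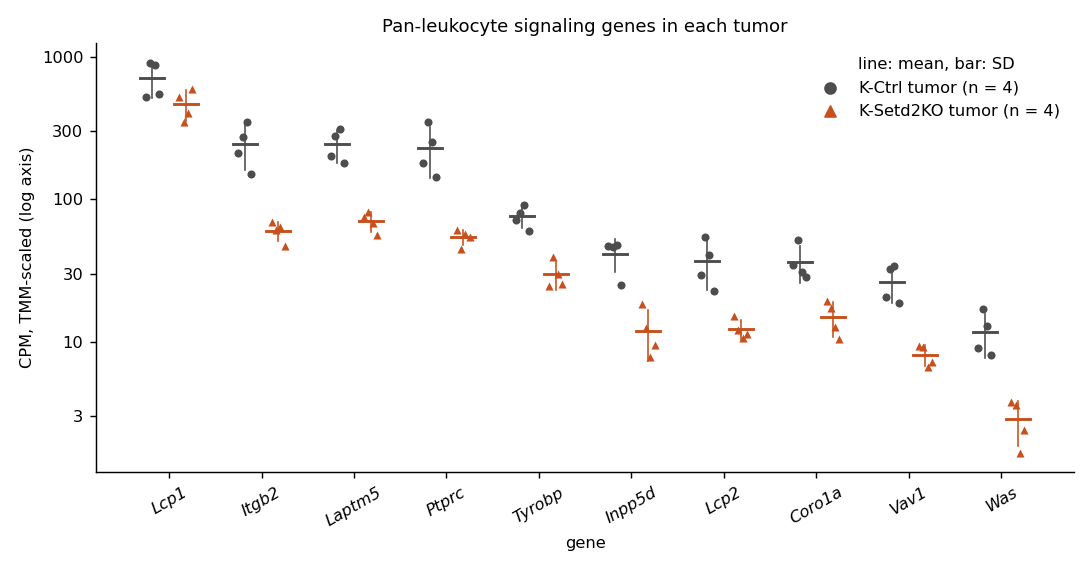
CPM of each of the 10 genes (log axis) in the 4 K-Ctrl tumors (circles) and the 4 K-Setd2KO tumors (triangles), with the mean (line) and SD (bar). The groups are apart for 9 genes, from Itgb2 (151.5 to 350.2 against 47.1 to 68.9 CPM) to Was (8.12 to 16.9 against 1.66 to 3.75 CPM), and overlap for Lcp1.

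Receptors or receptor chains at the surface are encoded by 3 of the genes. *Ptprc* (ENSMUSG00000026395.16, chr1:138062861-138175708, minus strand) encodes CD45, the transmembrane phosphatase that keeps Src-family kinases ready for activation. Its level was 178.7, 346.9, 252.6 and 143.95 CPM in *K-Ctrl* replicates 1 to 4 and 61.3, 45.1, 57.3 and 54.1 CPM in *K-Setd2KO* replicates 1 to 4. The *K-Setd2KO* tumors were close to each other, whereas the highest *K-Ctrl* tumor, replicate 2, was far above the lowest, replicate 4. Mean CPM fell 4.23-fold, from 230.5 ± 89.8 to 54.4 ± 6.87 (SD, n = 4). Its log2 fold change, -2.08 ± 0.26 (SE, edgeR adjusted p = 0.00560), was the largest of the 10 with genotype as the only term. That rank changed in other fits. With sex as a term *Was* had the larger change (-2.46 against -2.22), and without *K-Ctrl* replicate 2 *Itgb2* did (-1.98 against -1.82).

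*Itgb2* (ENSMUSG00000000290.13, chr10:77530252-77565708, plus strand) encodes CD18, the beta chain that the leukocyte integrins share. It was measured at 211.6, 272.0, 350.2 and 151.5 CPM in *K-Ctrl* replicates 1 to 4. The *K-Setd2KO* tumors held 68.9, 60.6, 64.0 and 47.1 CPM. All 4 lay under every *K-Ctrl* tumor, and the log2 fold change was -2.03 ± 0.25 (SE, edgeR adjusted p = 0.00560). *Tyrobp* (ENSMUSG00000030579.10, chr7:30413760-30417585, plus strand) encodes DAP12, the ITAM-bearing chain that pairs with activating receptors of myeloid and NK cells. Its level was 71.8, 80.3, 91.3 and 59.97 CPM in *K-Ctrl* and 24.8, 39.4, 29.7 and 25.5 CPM in *K-Setd2KO* tumors. *K-Setd2KO* replicate 1, the highest of its group for 7 of the 10 genes, was the lowest for *Tyrobp*. The log2 fold change of *Tyrobp* was smaller, at -1.34 ± 0.19 (SE, edgeR adjusted p = 0.00643).

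The genes of adaptors, exchange factors and lipid phosphatases downstream of these receptors fell as well. *Lcp2* (ENSMUSG00000002699.13, chr11:34046920-34092295, plus strand) encodes SLP-76, a scaffold phosphorylated after engagement of antigen and Fc receptors. It stood at 29.5, 54.7, 40.8 and 22.8 CPM in *K-Ctrl* and at 15.2, 12.0, 10.6 and 11.3 CPM in *K-Setd2KO* tumors, in replicate order. The log2 fold change was -1.59 ± 0.27 (SE, edgeR adjusted p = 0.0102). *Vav1* (ENSMUSG00000034116.17, chr17:57279100-57328031, plus strand) encodes the exchange factor for Rac that binds SLP-76. Its values were 20.7, 32.3, 33.9 and 18.7 CPM in *K-Ctrl* and 9.30, 9.18, 6.64 and 7.19 CPM in *K-Setd2KO* tumors. *K-Ctrl* replicates 2 and 3 were the high pair in both genes, and the log2 fold change of *Vav1* was -1.70 ± 0.24 (SE, edgeR adjusted p = 0.00667).

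*Inpp5d* (ENSMUSG00000026288.14, chr1:87620312-87720507, plus strand) encodes SHIP1, a 5-phosphatase that removes the lipid product of PI 3-kinase. It was at 46.8, 46.4, 48.1 and 25.2 CPM in *K-Ctrl* and at 18.3, 12.4, 7.75 and 9.41 CPM in *K-Setd2KO* tumors. *K-Ctrl* replicates 1 to 3 were nearly equal and replicate 4 stood apart below them, still above every *K-Setd2KO* tumor. Its log2 fold change was -1.78 ± 0.31 (SE, edgeR adjusted p = 0.0104).

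Actin regulators are encoded by 3 of the genes, and 2 of them passed the test. *Was* (ENSMUSG00000031165.6, chrX:8081453-8090498, minus strand) encodes WASP, the activator of the Arp2/3 complex in blood cells. It had the lowest level of the 10, at 9.05, 16.9, 12.97 and 8.12 CPM in *K-Ctrl* and 3.75, 3.60, 1.66 and 2.40 CPM in *K-Setd2KO* tumors, and a log2 fold change of -2.02 ± 0.35 (SE, edgeR adjusted p = 0.0105). *Coro1a* (ENSMUSG00000030707.15, chr7:126699773-126707787, minus strand) encodes coronin 1A, which binds actin filaments and the Arp2/3 complex. Its values were 34.3, 51.8, 31.1 and 28.6 CPM in *K-Ctrl* and 19.4, 17.4, 12.6 and 10.4 CPM in *K-Setd2KO* tumors, with a log2 fold change of -1.27 ± 0.25 (SE, edgeR adjusted p = 0.0155), the smallest among the 9 genes that passed. *Bola2*, which overlaps it on the opposite strand, stayed between 11.1 and 15.0 CPM in all 8 tumors. Whether reads were counted by strand is not given in the sources used here, so some reads of *Bola2* could be counted for *Coro1a* or be set aside.

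*Lcp1* (ENSMUSG00000021998.16, chr14:75131101-75230842, plus strand) encodes L-plastin, which bundles actin filaments. It had the most counts of the 10 genes, at 527.5, 909.1, 873.1 and 553.5 CPM in *K-Ctrl* and 521.6, 349.4, 406.7 and 600.4 CPM in *K-Setd2KO* replicates 1 to 4. The groups overlapped, since *K-Setd2KO* replicate 4 lay above *K-Ctrl* replicates 1 and 4. Means were 715.8 ± 203.2 and 469.5 ± 112.9 CPM (SD, n = 4), the log2 fold change was -0.61 ± 0.24 (SE), the edgeR p was 0.0325 before and 0.130 after adjustment, and the exact permutation test gave p = 0.114. Leaving out each tumor in turn gave log2 fold changes from -0.76 (without *K-Setd2KO* replicate 4, edgeR adjusted p = 0.0970) to -0.48 (without *K-Ctrl* replicate 2, 0.283), and none of the 8 fits called the gene. Within *K-Setd2KO*, the order of the tumors in *Lcp1* was the order in *Cxcr2*, a neutrophil chemokine receptor gene, at 23.5, 0.841, 9.51 and 41.9 CPM. *Pf4*, a platelet gene, was also highest in replicate 4, at 122.7 CPM. Both genes were picked after their values were seen, and neither was called between the groups. In their lists, 3 of 7 tested neutrophil markers and 1 of 3 tested platelet markers had a log2 fold change below 0. The part of these cells in the level of *Lcp1* was not tested.

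*Laptm5* (ENSMUSG00000028581.17, chr4:130913125-130936141, plus strand) encodes a lysosomal membrane protein of blood cells that lowers antigen receptors at the surface. It was at 203.1, 276.6, 313.2 and 179.9 CPM in *K-Ctrl* and at 74.7, 81.5, 67.7 and 55.8 CPM in *K-Setd2KO* tumors, with a log2 fold change of -1.80 ± 0.20 (SE, edgeR adjusted p = 0.00506). It shared with *Ptprc*, *Itgb2*, *Vav1* and most of the others a spread in *K-Ctrl* that placed replicates 2 and 3 above replicates 1 and 4.

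Over the 10 genes, *K-Ctrl* replicate 4 was the lowest *K-Ctrl* tumor for 9 and replicate 1 for the other, and the highest was replicate 2 for 5 genes and replicate 3 for 5. In *K-Setd2KO*, replicate 1 was highest for 7 genes. The root mean square distance of the centred log2 CPM of a gene from the mean of the other 9 over the 8 tumors was 0.0970 for *Vav1*, 0.137 for *Lcp2* and 0.176 for *Laptm5*. It was 0.637 for *Lcp1*, and the remaining 6 lay between 0.295 and 0.335. Thus *Lcp1* was the gene with the least typical profile. Its log2 ratio to *Ptprc* in the same tumor rose from 1.67 ± 0.24 to 3.08 ± 0.28 (SD, n = 4), without overlap (exact permutation p = 0.0286; 0.129 adjusted over the 9 ratios to *Ptprc*). The ratio of *Lcp2* to *Ptprc* was also without overlap, at -2.63 ± 0.03 and -2.14 ± 0.23 (SD, n = 4), with the same p-values from the exact permutation test, and the other 7 ratios overlapped. With 4 tumors a group this test cannot show a difference for only 1 or 2 of 9 ratios after adjustment, so the adjusted value says nothing about whether *Lcp1* and *Ptprc* changed by the same amount.

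**Figure D2:**
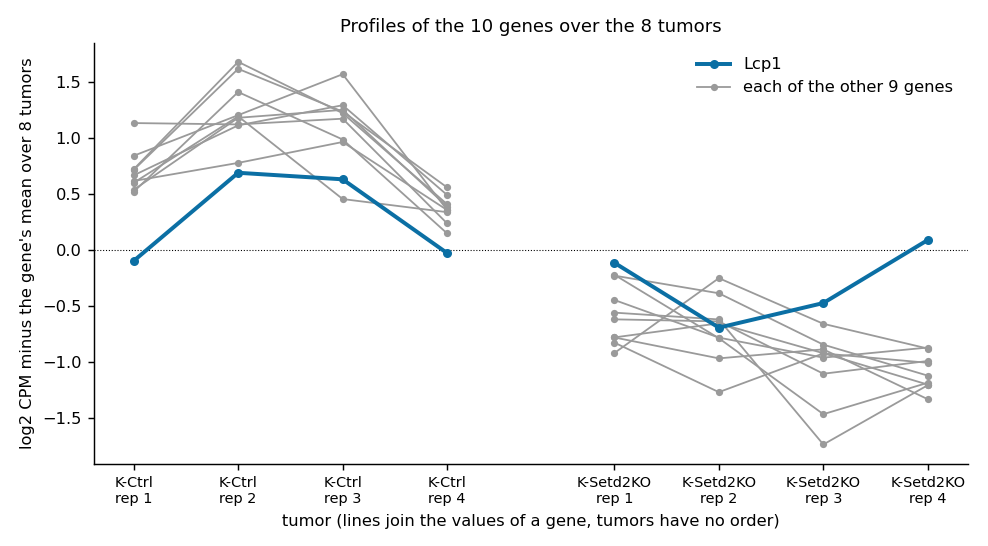
Log2 CPM of each gene minus its mean over the 8 tumors, by tumor, with Lcp1 in blue and the other 9 genes in gray. In K-Setd2KO replicate 4 the Lcp1 value is 0.09 while the other 9 genes are below 0 in all 4 K-Setd2KO tumors.

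*Lcp1* made up 39.6% to 46.4% of the summed CPM of the 10 genes in *K-Ctrl* and 55.4% to 72.9% in *K-Setd2KO* tumors. The sum of the other 9 was 638.7 to 1178 CPM in *K-Ctrl* and 223.2 to 295.6 CPM in *K-Setd2KO* tumors, and the sum of all 10 was 1192 to 2087 and 630.5 to 823.6 CPM. Both sums kept the groups apart.

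Levels of different genes were compared per kilobase of annotated exon, summed over a gene (18313 bases for *Ptprc*, 667 for *Tyrobp*). A long annotated length lowers the value. The lengths of the transcripts present were not measured, so the ranks depend on the annotation too. In *K-Ctrl* the mean was 113.7 CPM per kb for *Tyrobp*, 80.7 for *Itgb2*, 75.3 for *Lcp1* and 64.2 for *Laptm5*, and these 4 lay above the other 6 in level. *Coro1a* (13.1 CPM per kb), *Ptprc* (12.6), *Lcp2* (8.29), *Vav1* (7.15), *Inpp5d* (5.47) and *Was* (4.94) followed. Only the step from *Laptm5* to *Coro1a* was free of overlap between neighbors in the 4 tumors. In *K-Setd2KO* *Lcp1* took the first place, at 49.4 CPM per kb, ahead of *Tyrobp* at 44.8, *Itgb2* at 19.7 and *Laptm5* at 18.5, and the order of the other 6 was as in *K-Ctrl*. There *Lcp1* and *Tyrobp* overlapped, and the steps from *Tyrobp* to *Itgb2*, from *Laptm5* to *Coro1a* and from *Coro1a* (5.37) to *Ptprc* (2.97) were free of overlap.

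Genes that work with these 10 proteins were taken from 7 lists of 85 genes in all, of which 83 passed the filter on low counts. Of these, 53 were called lower in *K-Setd2KO* tumors, none was called higher and 30 were not called. A log2 fold change below 0 was found for 80 of the 83. In the lists that follow, genes said to have fallen are those called lower. Their log2 fold changes ran from -2.60 to 0.47 around a median of -1.52. The background for such a call is the 7.74% given above, and these lists too were chosen with earlier results of these data known. *Sh2d1a* did not pass the filter, and *Evi2b* was listed at 0 in all 8 tumors.

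Integrin partners fell in 8 of 10 cases. *Itgal*, the alpha chain that pairs with CD18 in LFA-1, went from 60.5 ± 19.9 to 13.6 ± 1.66 CPM (SD, n = 4, log2 fold change -2.16, edgeR adjusted p = 0.00453). *Apbb1ip*, which encodes the Rap1 effector RIAM, had a log2 fold change of -2.20 (edgeR adjusted p = 0.00574). *Itgam*, the alpha chain of Mac-1, did not pass the test, at a log2 fold change of -0.23. It was chosen after its value was seen. In the list of Tyrobp-coupled receptors with Syk, 6 of 9 fell, among them *Syk*, the kinase recruited by ITAM chains (82.2 ± 26.6 to 21.9 ± 5.98 CPM, SD, n = 4, edgeR adjusted p = 0.00742), and *Fcer1g*, the Fc receptor gamma chain that resembles DAP12 (53.3 ± 17.6 to 18.1 ± 5.12 CPM, SD, n = 4, edgeR adjusted p = 0.0110). *Syk* and the 2 ITAM chains thus had log2 fold changes between -1.90 and -1.34. With the replicate number as a block 2 of the 9 remained called, *Syk* and *Fcer1g*. The calls of *Clec5a*, *Sirpb1a*, *Klrk1* and *Hcst*, named after their values were seen, were lost there and also without *K-Ctrl* replicate 3.

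Kinases, phosphatases and adaptors next to antigen receptors fell in 8 of 15 cases, and in 6 with the replicate number as a block. *Lat*, *Lyn* and *Ptpn6* are named after their values were seen. Each lost the call when *K-Ctrl* replicate 2, *K-Ctrl* replicate 3 or *K-Setd2KO* replicate 3 was left out. *Btk*, a kinase of B and myeloid cells, had a log2 fold change of -1.80 (edgeR adjusted p = 0.00834). *Lck* and *Zap70*, kinases of the T cell receptor, did not pass, at -1.50 and -1.42, and were chosen after their values were seen. Lipid and GTPase signaling genes fell in 11 of 18 cases. *Rac2*, *Arhgap9*, *Pik3cd* and *Rasal3*, named after their values were seen, lost the call without *K-Ctrl* replicate 3. *Dock8*, an exchange factor for Cdc42, fell from 69.0 ± 12.8 to 20.4 ± 3.04 CPM (SD, n = 4, edgeR adjusted p = 0.00311), and *Arhgap30*, a GTPase-activating protein gene, from 102.0 ± 19.8 to 30.4 ± 4.17 CPM (SD, n = 4, edgeR adjusted p = 0.00306). No tumor of one group reached the other in either gene.

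Leukocyte actin regulators fell in 8 of 13 cases. The 2 with the smallest p were the class I myosin genes *Myo1f* (log2 fold change -2.11, edgeR adjusted p = 0.00560) and *Myo1g* (-1.93, edgeR adjusted p = 0.00541). Leukocyte membrane proteins fell in 8 of 10 cases, with *Selplg*, the ligand of P-selectin, at -1.73 (edgeR adjusted p = 0.00643) and *Cd48*, a ligand of SLAM-family receptors, at -2.19 (edgeR adjusted p = 0.00678). *Cd37*, *Ly9*, *Spn* and *Ptpn7*, named after their values were seen, lost the call without *K-Setd2KO* replicate 3. With the replicate number as a block 6 of the 10 were called, and with sex as a term 9. Transcription factors fell in 4 of 8 cases. *Irf8*, a factor of monocytes and dendritic cells, had a log2 fold change of -1.64 (edgeR adjusted p = 0.00834) and *Fli1*, an ETS factor of blood and endothelial cells, one of -1.22 (edgeR adjusted p = 0.00881). The other 2 were *Spi1*, which encodes PU.1, at -1.77 and *Ikzf1*, which encodes Ikaros, at -1.56, both named after their values were seen. The call of *Ikzf1* was lost with the replicate number as a block (edgeR adjusted p = 0.0605) and without *K-Ctrl* replicate 2 or 3 or *K-Setd2KO* replicate 3 or 4.

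Among 9805 protein-coding genes of sufficient level, the profile most like the mean of the 10 genes over the 8 tumors was that of *Plcl2* (root mean square distance 0.111), followed by *Arhgap30* (0.117), *Nckap1l* (0.140), *Csf2rb2* (0.144) and *Prex1* (0.145). *Nckap1l* encodes the leukocyte subunit of the WAVE complex and *Prex1* an exchange factor for Rac. Log2 fold changes of the 5 lay between -1.75 and -1.57, a direct consequence of choosing genes by profile.

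Broadly expressed relatives of the same protein families served as a comparison, 14 genes with a median log2 fold change of -0.27. Of these, 3 were lower, 1 was higher and 10 were not called. *Pls3*, the T-plastin gene next to *Lcp1* in the plastin family, was at 593.2 ± 144.2 CPM in *K-Ctrl* tumors and 624.2 ± 94.2 CPM in the other group (SD, n = 4, log2 fold change 0.07, edgeR adjusted p = 0.83). *Inppl1*, which encodes SHIP2, was at 71.9 ± 5.39 and 76.8 ± 9.76 CPM (SD, n = 4, log2 fold change 0.10), and *Laptm4a* at 474.2 ± 25.2 and 467.2 ± 52.97 CPM (SD, n = 4, log2 fold change -0.02). The other relatives that were not called lay between -0.49 and 0.21.

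The relatives that were called included *Vav3*, at 20.8, 9.58, 12.2 and 7.68 CPM in *K-Ctrl* and 3.34, 3.37, 2.12 and 1.54 CPM in *K-Setd2KO* (log2 fold change -2.25, edgeR adjusted p = 0.0104). *Itgb5*, an integrin beta chain of epithelial and stromal cells, fell from 57.9 ± 9.28 to 25.4 ± 4.37 CPM (SD, n = 4, edgeR adjusted p = 0.00738). *Coro1c* was lower by a log2 fold change of -0.58 (edgeR adjusted p = 0.0288), a call kept in 3 of 8 fits that left out 1 tumor. It was lost without *K-Ctrl* replicate 1 or 3 and without *K-Setd2KO* replicate 1, 3 or 4, and also with the replicate number as a block (edgeR adjusted p = 0.0665) or sex as a term (0.0929). *Wasl*, which encodes N-WASP, was higher, at 133.5, 129.8, 126.2 and 124.1 CPM in *K-Ctrl* and 209.7, 143.6, 231.5 and 267.5 CPM in *K-Setd2KO* (log2 fold change 0.73, edgeR adjusted p = 0.0290). That call held in 1 of 8 fits that left out a tumor, the one without *K-Setd2KO* replicate 2, and was lost when any other tumor was left out, with the block (edgeR adjusted p = 0.0664) and with the sex term (0.0612).

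Ratios within a tumor compare a leukocyte gene with its broad relative free of library scaling. Of 12 such ratios, 8 had no overlap between the groups. Apart from *Lcp1*, the leukocyte genes in them were already without overlap, so this count is no separate evidence. The share among ratios of other genes was not computed. The log2 ratio of *Was* to *Wasl* went from -3.49 ± 0.47 to -6.18 ± 0.81, that of *Inpp5d* to *Inppl1* from -0.83 ± 0.50 to -2.73 ± 0.44, and that of *Vav1* to *Vav2* from -1.12 ± 0.32 to -2.58 ± 0.32 (SD, n = 4 in each). Each gave an exact permutation p of 0.0286, or 0.0429 adjusted over the 12. *Lcp1* to *Pls3* overlapped, at 0.25 ± 0.65 and -0.43 ± 0.44 (SD, n = 4, exact permutation p = 0.200), as did *Vav1* to *Vav3* and *Coro1a* to *Coro1b*.

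**Figure D3:**
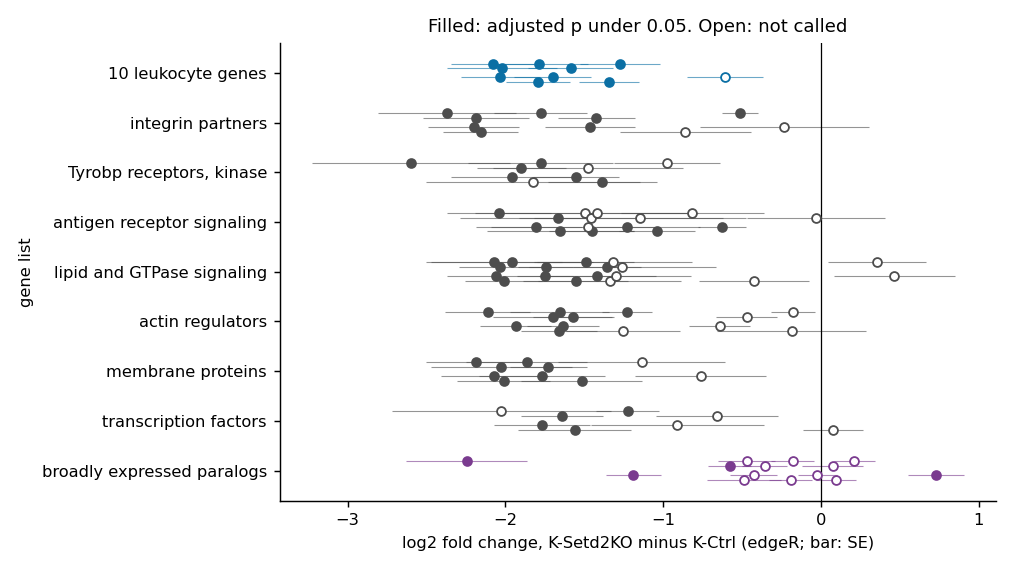
Log2 fold change with SE for the 10 genes, the 83 tested partner genes by list and the 14 broadly expressed paralogs, filled where the adjusted p is under 0.05. Of the 10 genes 9 are filled on the lower side, 53 partners are filled on the lower side, and the paralogs have 3 filled points below 0 and 1 above.

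Marker lists of single cell types moved in part with the 10 genes. The markers that were called are named here after their values were seen. Of 12 macrophage markers, 5 were lower (*Cd68*, *Adgre1*, *Csf1r*, *Mrc1* and *Siglecf*) and none higher. Their median log2 fold change was -1.47, and their summed level was 2081 to 6185 CPM in *K-Ctrl* and 408.0 to 2675 CPM in *K-Setd2KO* tumors, with overlap. The most abundant, *Chil3*, a chitinase-like protein of alveolar macrophages, was at 1170, 2706, 4596 and 1528 CPM against 2226, 596.5, 913.2 and 205.2 CPM and did not pass (edgeR adjusted p = 0.225). Of 5 tested dendritic cell markers, 3 were lower (*Flt3*, *Clec9a* and *Ccr7*). The median was -2.12, and the sums were apart, at 29.3 to 60.3 against 6.50 to 15.0 CPM, although the most abundant, *Zbtb46*, did not pass (edgeR adjusted p = 0.0620). Of 10 T cell markers, 1 was lower, *Cd2* (33.5 ± 10.03 to 5.72 ± 2.43 CPM, SD, n = 4, edgeR adjusted p = 0.00574), although all 10 had a fold change below 0, with a median of -1.69. The T cell sums were 57.1 to 158.7 and 9.51 to 48.8 CPM. Of 7 tested B cell markers, 1 was lower (*Cd22*), with a median of -2.14 and sums of 38.3 to 106.1 and 19.3 to 121.9 CPM, and *Ighm*, the most abundant, did not pass, at 1.29 to 99.1 CPM in *K-Setd2KO*.

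Monocyte markers had a median log2 fold change of -1.44, with 4 of 5 below 0. Of the 5, 1 was lower (*Fcgr4*) and 1, *Ly6c2*, was higher (14.4 ± 6.44 to 50.04 ± 33.5 CPM, SD, n = 4, edgeR adjusted p = 0.0454), a call kept in 1 of 8 fits that left out a tumor, the one without *K-Setd2KO* replicate 2, and lost with the block (edgeR adjusted p = 0.112) and the sex term (0.0582). The monocyte sums overlapped, at 45.4 to 111.5 and 34.6 to 110.6 CPM. Of 7 tested neutrophil markers 1 was lower (*Mmp8*), the median was 0.51, and the sums were 25.0 to 36.9 and 15.5 to 65.2 CPM. *Cxcr2* did not pass (edgeR adjusted p = 0.136). None of the 6 NK cell markers and none of the 6 mast cell and basophil markers passed the filter on low counts. The NK sum was 1.78 to 5.29 against 0.277 to 4.88 CPM and that of the other list 0.982 to 2.46 against 0.306 to 3.59 CPM. *Gzma*, the most abundant NK marker, stayed under 1.35 CPM, *Mcpt8*, the most abundant of the other list, reached 3.42 CPM, and *Tpsb2* was at 0 in all 8 tumors.

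Markers of cells other than leukocytes were also measured. Of 6 endothelial markers 2 were lower (*Cdh5* and *Tek*) and all 6 had a fold change below 0, with a median of -1.68, near that of the 10 genes, and sums of 476.2 to 1839 and 186.9 to 487.6 CPM, and *Pecam1* did not pass (edgeR adjusted p = 0.0699). Of 6 fibroblast markers 1 was lower (*Pdgfra*), with a median of -0.89 and sums of 497.1 to 1121 and 141.4 to 583.4 CPM, and *Col3a1* did not pass (edgeR adjusted p = 0.134). No erythroid marker of 5 and no platelet marker of 3 tested was called. All 5 erythroid markers had a fold change below 0, with a median of -1.74, near that of the 10 genes, whereas the platelet median was 0.10, and their sums were 150.4 to 805.1 against 76.4 to 202.2 CPM and 6.78 to 16.2 against 7.73 to 127.0 CPM. *Hbb-bs* (edgeR adjusted p = 0.0710) and *Pf4* (edgeR adjusted p = 0.0736) were their most abundant genes. Of 8 epithelial markers 2 were higher (*Epcam* and *Krt18*), with a median of 0.40 and sums of 1837 to 2856 and 2403 to 3143 CPM. *Cdh1*, the E-cadherin gene, was at 732.1 ± 93.7 and 726.3 ± 113.4 CPM (SD, n = 4, log2 fold change -0.01), and *Sftpc*, the surfactant protein C gene of alveolar type 2 cells, at 25164 ± 5046 and 25119 ± 3714 CPM (SD, n = 4, log2 fold change 0.00). Of 8 alveolar type 2 markers 1 was higher (*Sftpb*) and 1 lower (*Napsa*), with a median of 0.14 and sums of 44555 to 65932 and 53440 to 74632 CPM. The part of these cell types in the levels of the 10 genes was not tested, and no marker list can be set against them as an independent measure, since the same 8 libraries hold both.

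Several of these marker calls did not withstand leaving out a tumor. The number of 8 such fits that kept the call was 2 for *Siglecf*, *Tek* and *Krt18*, 3 for *Cdh5*, *Napsa* and *Mmp8*, 6 for *Flt3* and *Pdgfra* and 7 for *Epcam*. *Siglecf*, *Tek*, *Cdh5* and *Mmp8* lost it without *K-Ctrl* replicate 1 or 3 and without *K-Setd2KO* replicate 3, among others, *Krt18* without *K-Ctrl* replicates 1 to 3 or *K-Setd2KO* replicates 1, 3 or 4, and *Napsa* when any 1 of the *K-Ctrl* tumors or *K-Setd2KO* replicate 1 was left out. *Flt3* lost it without *K-Setd2KO* replicate 1 or 3, *Pdgfra* without *K-Ctrl* replicate 1 or *K-Setd2KO* replicate 4, and *Epcam* without *K-Ctrl* replicate 3. With sex as a term, the call was lost for *Cdh5* (edgeR adjusted p = 0.182), *Tek* (0.204), *Siglecf* (0.0710), *Napsa* (0.0701), *Mmp8* (0.0696) and *Epcam* (0.0544). With the replicate number as a block it was lost for *Napsa* (edgeR adjusted p = 0.0574) and *Mmp8* (0.0712). Both fits also added lower calls, named here after their values were seen. The sex term raised the count of lower T cell markers from 1 to 6 of 10 (with *Cd3e*, *Cd5*, *Cd4*, *Cd8a* and *Trac*, edgeR adjusted p from 0.0251 to 0.0459), of B cell markers from 1 to 3 of 7 (with *Cd79a* and *Ms4a1*), of monocyte markers from 1 to 3 of 5 (with *Ms4a6c* and *Treml4*) and of dendritic cell markers from 3 to 4 of 5 (with *Xcr1*). The block raised the count of lower erythroid markers from 0 to 4 of 5 (*Hba-a2*, *Hbb-bs*, *Hbb-bt* and *Alas2*), of endothelial markers from 2 to 4 of 6 (with *Pecam1* and *Kdr*), of fibroblast markers from 1 to 3 of 6 (with *Col1a2* and *Col3a1*), of dendritic cell markers from 3 to 4 of 5 (with *Zbtb46*) and of macrophage markers from 5 to 6 of 12 (with *Marco*). The other called markers of leukocytes, *Cd68*, *Adgre1*, *Csf1r*, *Mrc1*, *Clec9a*, *Ccr7*, *Cd2*, *Cd22* and *Fcgr4*, kept theirs in all 8 fits, with the block and with the sex term.

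**Figure D4:**
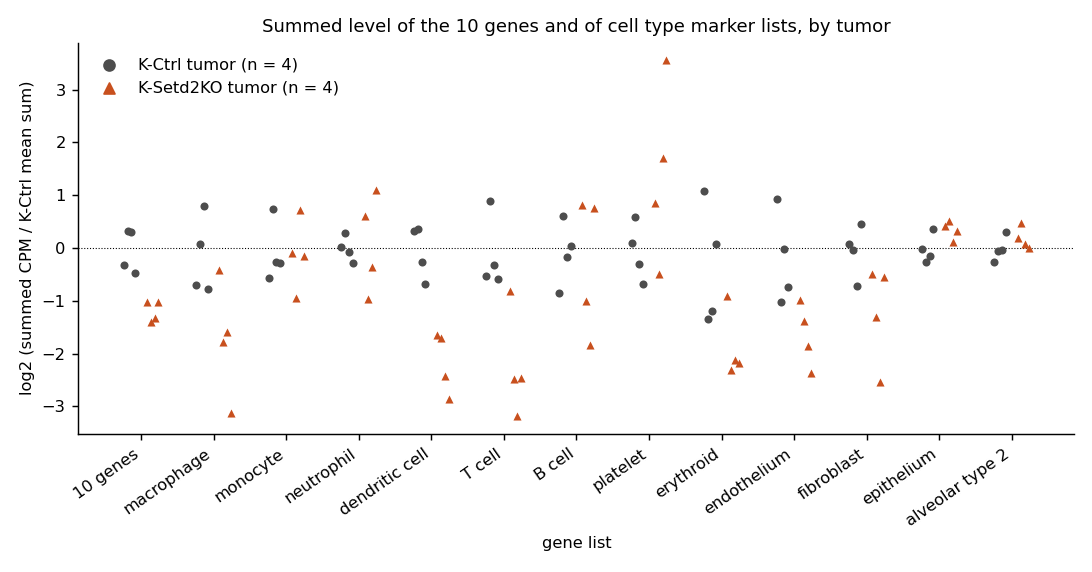
Summed CPM of the 10 genes and of 12 cell type marker lists in each tumor, as log2 of the ratio to the K-Ctrl mean sum. The 10 genes, dendritic cell and T cell sums of the K-Setd2KO tumors lie below all K-Ctrl tumors, and the macrophage, monocyte, neutrophil and B cell sums overlap.

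The sex of the tumors, read from *Xist* and Y-linked genes since the labels do not give it, was unequal between the groups, with 1 female and 3 male *K-Ctrl* and 3 female and 1 male *K-Setd2KO* tumors. All 10 genes were lower in *K-Setd2KO* tumors within each sex. The median difference in mean log2 CPM was -1.95 among the 4 female tumors and -1.72 among the 4 male tumors, and *Lcp1* gave the smallest difference in both, at -0.93 and -0.64. These within-sex values rest on 1 tumor in 1 of the groups and carry no test. The same 9 genes were called with sex as a term.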

How the data were processed

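RNA of 8 tumors (*K-Ctrl* and *K-Setd2KO*, 4 each) was sequenced from strand-aware poly(A) libraries. The authors deposited 1 table of raw counts per gene, with no normalization. The submitters' processing notes name STAR 2.5.2b, featureCounts 1.5.0-p1 and build GRCm38.p4. The annotation release and the strand setting are not given in the sources used here. Symbols and types came from GENCODE M21 (48349 of 48709 identifiers matched, 99.26%) and coordinates from the deposited table.

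Counts were fitted over the whole table with edgeR 4.0.16 in R 4.3.3 (filterByExpr, TMM, robust quasi-likelihood fit, genotype as the only term), with Benjamini-Hochberg adjustment over 14929 genes and a threshold of 0.05. SE was obtained from the fitted log2 fold change and its F value, as the size of the former over the square root of the latter. CPM use the TMM-scaled library size. Single values were compared by exact permutation on log2 CPM (prior count 2). The scripts were tested on simulated data. Library pairs within a group differed far beyond sampling noise (lowest chi-square per degree of freedom 30.5), so none was counted as a copy.

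The members and lists were chosen with earlier results of these data known. Named genes were the 10 members, the 2 partner genes of each list with the smallest p, the paralogs that passed, the 5 genes most alike in profile among those with a mean log2 CPM of at least 3, the most abundant gene of each marker list and *Setd2*, 1 gene that this rule names is not reported here, and other names are marked where they stand or serve to describe a list. Alternatives covered DESeq2 1.42.0 (the tool of the study), 4 other scalings, 2 filters, leaving out each tumor, the replicate number as a block, a sex term and a 2-fold limit.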

Additional observations from a re-analysis of the deposited data

Results flagged for a closer look

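A tumor counted as standing apart from the other 3 of its group where its gap to the nearest, divided by the range of the group, was above Dixon's 95% critical value. This was asked of 92 groups of 4 values, for single genes and summed lists, and 9 met it. Chance flags about 1 in 20 groups. Among the 10 genes, only *Inpp5d* had such a tumor, *K-Ctrl* replicate 4 at 25.17 CPM against 46.39 to 48.06 CPM. Its call held without that tumor.

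Among the relatives, *Inppl1* and *Itgb5* had a low *K-Setd2KO* replicate 3. *Inppl1* was at 62.29 CPM against 80.31 to 83.52 CPM, and *Itgb5* at 18.83 CPM against 27.53 to 27.61 CPM.

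*K-Setd2KO* replicate 1 was the high tumor in 4 lists. Its summed level of leukocyte membrane proteins was 119.4 CPM against 72.28 to 77.53 CPM. Its T cell sum was 48.79 CPM against 9.505 to 15.57 CPM, its NK cell sum 4.879 CPM against 0.2769 to 0.6884 CPM, and its erythroid sum 202.2 CPM against 76.41 to 87.58 CPM. *K-Ctrl* replicate 2 was the high tumor in 2 lists, with a T cell sum of 158.7 CPM against 57.12 to 69.16 CPM and a monocyte sum of 111.5 CPM against 45.37 to 56.0 CPM. The 9 lower calls among the 10 genes held without either tumor.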

How the results depend on the processing

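The same 9 of the 10 genes were called lower in each of the alternatives and none was called higher, and all 10 were lower with scaling to epithelial markers. With 1 tumor left out the median log2 fold change of the 10 genes ran from -1.87 to -1.61. The scaling to epithelial markers moved the median of all genes to -0.34 and that of the 10 genes to -2.18, and only there was *Lcp1* called (log2 fold change -1.03, adjusted p = 0.0487; over the 18 fits its adjusted p ran from 0.0487 to 0.285). It called 6 paralogs lower. No paralog was called higher with it, nor with the replicate block, the sex term or the 2-fold limit (0 in each), and leaving out 1 tumor gave 0 to 1, with 2 to 4 lower. Partners called lower ranged from 36 (without *K-Ctrl* replicate 3) to 57 when 1 tumor was left out, none being called higher.

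Over all genes, 1897 were called. DESeq2 called 3211, the fit with a sex term 1237, and the 2-fold limit left 1254. Leaving out 1 tumor gave 763 (without *K-Ctrl* replicate 3) to 2058, and the count moved by over 1.5 times without *K-Ctrl* replicate 1 (938), 2 (1126) or 3 and without *K-Setd2KO* replicate 3 (1011). With the replicate block, 1341 genes were called, 1176 of them among the 1897, and it changed no call among the 10 genes. Correlations of the deviations of same-numbered tumors over the genes tested were -0.07, -0.03, 0.19 and -0.02. These cannot show whether same-numbered tumors share a factor that acts on some genes only, and the block changed calls in several marker lists. Depth limits *Was* most. The causes of these shifts were not tested.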

Other observations

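Genes that overlap one of the 10 on the chromosome were mostly at low levels. *A130071D04Rik*, on the strand of *Ptprc*, lay between 0.342 and 2.22 CPM. The overlapping genes on the opposite strand of *Lcp1* and *Lcp2* reached at most 0.856 CPM, and that of *Was* was at 0 in all 8 tumors. *Bola2*, opposite *Coro1a*, was the only one of comparable level, with means of 12.5 CPM in *K-Ctrl* tumors and 13.3 CPM in *K-Setd2KO* tumors.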
